A study of Mus musculus with 16 samples.

Results

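The regions described here are the PPARγ and C/EBPα binding sites around 5 genes of glycerol and triglyceride synthesis in mouse fat cells: Gpd1, Pck1, Gpam, Dgat1 and Dgat2. Members were all peaks of the deposited PPARγ and C/EBPα lists whose centre lay in a fixed window of mm9 around each gene. The windows ran on chromosome 15 from 99510000 to 99600000 for Gpd1, on chromosome 2 from 172930000 to 173030000 for Pck1, on chromosome 19 from 55100000 to 55260000 for Gpam, on chromosome 15 from 76290000 to 76390000 for Dgat1 and on chromosome 7 from 106260000 to 106380000 for Dgat2. They held 45 of the 30588 PPARγ peaks and 47 of the 30519 C/EBPα peaks, 92 of 61107 in all. Among the listed peaks the window alone chose the members, whatever their height or their difference between treatments. A site had first to be called a peak by the authors, so sites too weak to be called are missing.

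DNA attached to a protein was isolated with an antibody and sequenced (ChIP-seq) in 3T3-L1 adipocytes at day 7 of differentiation, for PPARγ, C/EBPα, the Mediator subunit MED1 and the histone acetyltransferase CBP. 3T3-L1 is an established mouse fibroblast line that becomes fat cells after dexamethasone, isobutylmethylxanthine and insulin. The treated cells received 1 µM rosiglitazone, a PPARγ agonist, in 0.1% DMSO for 1 h, and the control cells 0.1% DMSO alone for 1 h, with no genetic change in either group. Each of the 4 factors has 1 column of values per treatment, so no difference between treatments has a replicate check. The RNA polymerase II and input samples of the series were not used here. The labels give 2 PPARγ samples per treatment, but the PPARγ columns name no replicate. The files hold no expression values, so the cell type could not be set against marker genes.

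Fat cells store fatty acids by joining them to a glycerol 3-phosphate backbone. Gpd1 encodes the cytosolic dehydrogenase that makes glycerol 3-phosphate from a glycolytic intermediate, and Pck1 encodes cytosolic phosphoenolpyruvate carboxykinase, which feeds the same backbone from non-sugar precursors (glyceroneogenesis). Gpam encodes the mitochondrial acyltransferase that attaches the first fatty acid, and Dgat1 and Dgat2 encode unrelated enzymes of the endoplasmic reticulum that attach the last. PPARγ binds DNA with the receptor RXR, and Pck1 is a classical PPARγ target in fat cells.

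Values are tags, the mapped reads of single fragments, scaled by the authors to library size and called normalised tags below. Each value was a whole multiple of the value of 1 tag, so raw tags were recovered. Where a pair of values is given for a peak, the first is DMSO and the second rosiglitazone. A ratio is rosiglitazone over DMSO, and the range after it is the exact 95% interval (Clopper-Pearson) from the tags of the pair of libraries. With 1 column per treatment these intervals cover counting error only, not the spread between cultures. Tags carry no molecular identifiers, so copies of 1 fragment may be counted as separate tags, and the intervals can then be too narrow. Median tags per PPARγ peak of the whole list were 12 for PPARγ in DMSO and 17 in rosiglitazone, and between 1 and 4 for the other factors, which limits what single peaks can show for MED1 and CBP.

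Peak positions are in mm9, and no gene annotation of that build was used, so peaks were not assigned to promoters, introns or exons. In RefSeq (GRCm38.p6) the genes listed before and after each of the 5 are Smarcd1 and Cox14 for Gpd1, Ctcfl and Zbp1 for Pck1, Adra2a and Tectb for Gpam, Hsf1 and Scrt1 for Dgat1, and Uvrag and Mogat2 for Dgat2. A peak in a window can therefore lie at a neighbouring gene. Of the 5 genes, 2 matched RefSeq promoter sequences, Pck1 with 1 entry and Gpam with 2, and these are shown; Gpd1, Dgat1 and Dgat2 did not match. Each is the 250 bases before a transcription start, 5′ to 3′, from RefSeq (GRCm38.p6), with matches to the motifs below in capitals.
Pck1, chr2:173152823-173153072, plus strand: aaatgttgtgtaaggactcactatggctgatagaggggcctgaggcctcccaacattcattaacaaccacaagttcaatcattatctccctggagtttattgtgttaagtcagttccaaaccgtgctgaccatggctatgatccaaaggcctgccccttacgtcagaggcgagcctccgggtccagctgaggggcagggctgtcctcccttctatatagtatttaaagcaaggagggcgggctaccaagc
Gpam, chr19:55127239-55127488, minus strand: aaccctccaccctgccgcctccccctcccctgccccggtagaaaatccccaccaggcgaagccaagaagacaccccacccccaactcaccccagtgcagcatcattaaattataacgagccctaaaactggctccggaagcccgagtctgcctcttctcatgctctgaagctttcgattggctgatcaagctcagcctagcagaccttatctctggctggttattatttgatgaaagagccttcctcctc
Gpam, chr19:55099478-55099727, minus strand: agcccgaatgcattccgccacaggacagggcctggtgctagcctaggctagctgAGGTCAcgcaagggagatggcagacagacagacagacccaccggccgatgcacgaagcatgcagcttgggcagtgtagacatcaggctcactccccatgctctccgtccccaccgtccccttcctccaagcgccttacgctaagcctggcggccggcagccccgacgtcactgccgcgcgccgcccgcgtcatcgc
Searched on both strands were AGGTCA, the half-site of nuclear receptors, the direct repeat that PPARγ with RXR binds (AGGTCA, any 1 base, AGGTCA, with at most 2 mismatches, so that it can contain the half-site), and TTGCNNAA, a C/EBP motif. The only match was an AGGTCA in the second Gpam sequence, at positions -196 to -191 from the start. Of 32851 promoter windows of this length, 14.0% held AGGTCA, 3.24% the repeat and 9.56% the C/EBP motif. The mm9 peaks could not be placed on these GRCm38 sequences.

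PPARγ occupied all 5 windows, with 6 peaks at Gpd1, 8 at Pck1, 9 at Gpam, 9 at Dgat1 and 13 at Dgat2. By the authors' peak score, 15 of the 45 (33.3%) were among the highest 10% of the PPARγ list, and these were 2 of 6 at Gpd1, 3 of 8 at Pck1, 4 of 9 at Gpam, 5 of 9 at Dgat1 and 1 of 13 at Dgat2. The Dgat2 window thus had the most peaks and the fewest high ones. Of the 45, 38 (84.4%) had another PPARγ peak within 10 kb, against 54.8% of the whole list. Of these peaks, 22 overlapped a C/EBPα peak by at least 1 bp (48.9%, 33.7 to 64.2), against 36.1% of the whole list, a value inside that interval. The 47 C/EBPα peaks gave 22 (46.8%, 32.1 to 61.9) against 36.2%. Centres of the 22 pairs lay 15 to 174 bp apart, with a median of 44.

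**Figure D1:**
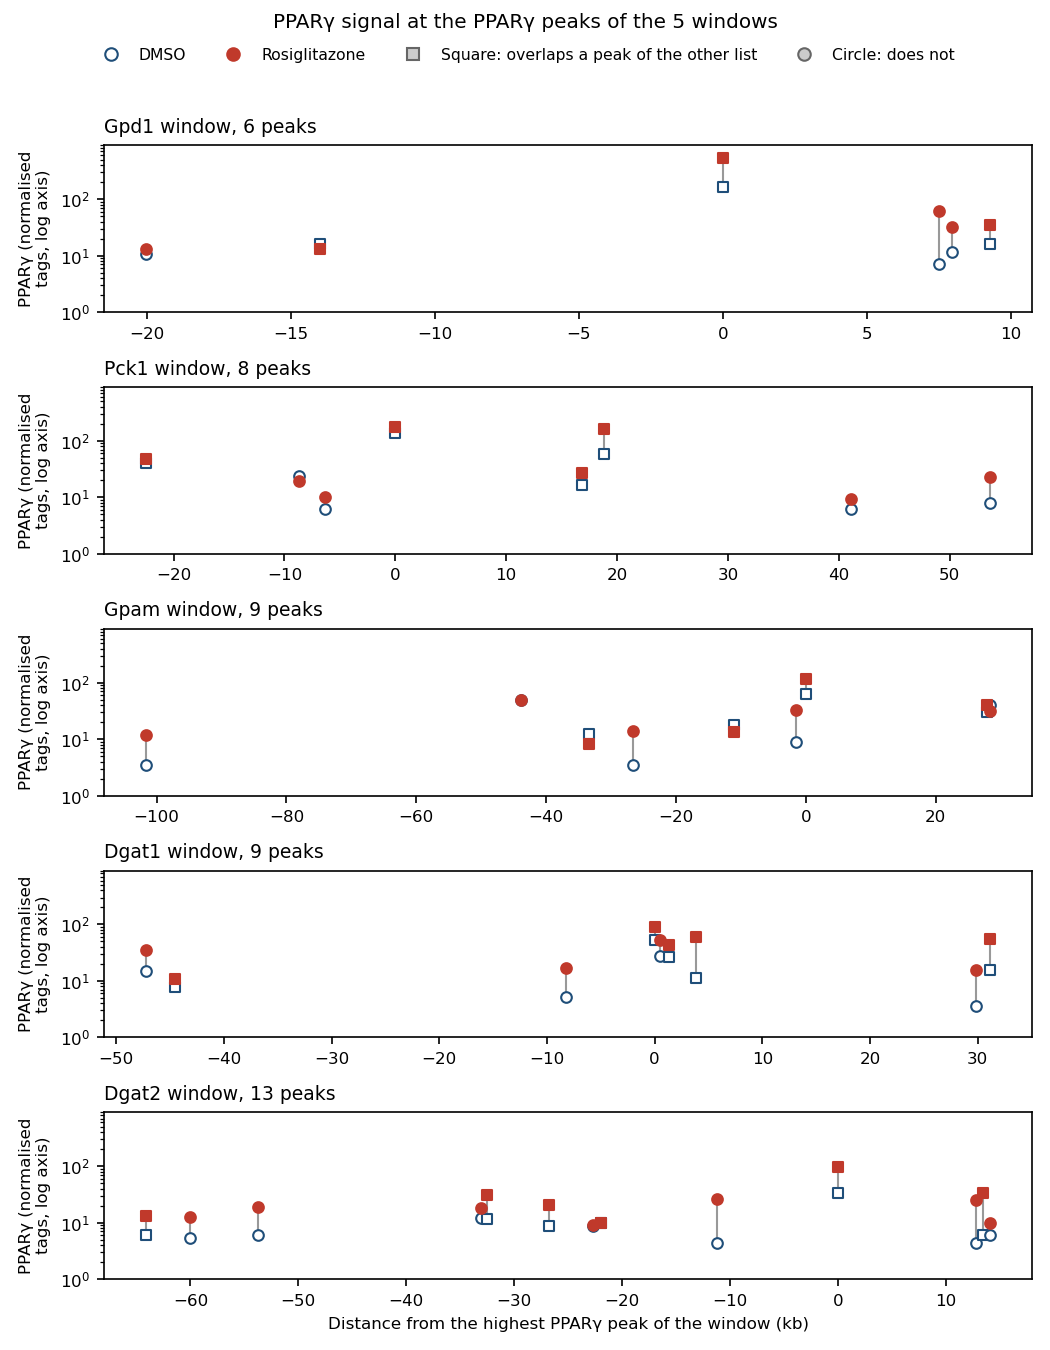
PPARγ normalised tags (log axis) at each PPARγ peak in DMSO (open) and rosiglitazone (filled), by distance in kb from the highest PPARγ peak of its window; squares overlap a C/EBPα peak. At 40 of the 45 peaks (88.9%, against 70.5% of the whole list) the rosiglitazone value was the higher, and the Gpd1 window has the single highest peak, at 535 in rosiglitazone.

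After 1 h of rosiglitazone PPARγ signal in the PPARγ peaks was higher over all 5 windows, most at Gpd1 and the Dgat genes. Summed over the window it went from 224 to 690 normalised tags at Gpd1, a ratio of 3.08 (2.67 to 3.56), and from 123 to 324 at Dgat2, a ratio of 2.63 (2.17 to 3.22). Dgat1 went from 166 to 382, a ratio of 2.30 (1.94 to 2.74). The gains at Pck1, from 295 to 481 or 1.63 (1.42 to 1.87), and at Gpam, from 230 to 317 or 1.37 (1.17 to 1.62), were smaller.

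Over the whole PPARγ list the ratio was 1.53 (1.52 to 1.53), so the windows have to be read against a general increase. Relative to the other peaks of the list, Gpd1 was 2.02 times higher (1.75 to 2.33), Dgat2 1.73 (1.42 to 2.11) and Dgat1 1.51 (1.27 to 1.80). Pck1 at 1.07 (0.930 to 1.22) and Gpam at 0.901 (0.768 to 1.06) did not differ from the rest of the list beyond counting error. Of the 10 pairs of windows, 7 differed in PPARγ ratio with an interval above 1, not adjusted for the number of pairs. Gpd1 exceeded Dgat1 by 1.34 times (1.07 to 1.68) but its 1.17 over Dgat2 (0.913 to 1.49) was within counting error, as were Dgat2 over Dgat1 (1.14, 0.878 to 1.49) and Pck1 over Gpam (1.18, 0.956 to 1.46). Counted in the PPARγ peaks, Gpd1, Dgat2 and Dgat1 thus stood above Pck1 and Gpam. For Pck1 this depended on the peaks counted. Without its highest peak the Pck1 ratio in the PPARγ peaks was 1.89 (1.57 to 2.27), an interval above the 1.53 of the list. In the C/EBPα peaks, PPARγ relative to the rest of that list was 1.58 at Pck1 (1.34 to 1.87), beside 1.61 at Dgat2 (1.27 to 2.04). There it was 1.99 at Gpd1 (1.71 to 2.31), 1.44 at Dgat1 (1.19 to 1.74) and 0.861 at Gpam (0.704 to 1.06). In the PPARγ peaks, the order among Gpd1, Dgat2 and Dgat1 turned when each window's highest peak was left out. The ratios were then 2.59 at Dgat1 (2.11 to 3.19), 2.55 at Gpd1 (1.92 to 3.41) and 2.54 at Dgat2 (2.02 to 3.22).

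Single peaks followed the windows. Of the 45 PPARγ peaks, 22 were at least 2-fold higher (log2 of the values with a pseudocount of 1), against 30.0% of the whole list, and 0 were at least 2-fold lower, against 4.43%. The median log2 ratio was 1.00 over the 45 and 0.50 over the list. The 22 were 4 of 6 at Gpd1, 2 of 8 at Pck1, 3 of 9 at Gpam, 5 of 9 at Dgat1 and 8 of 13 at Dgat2. Centred on the median of the list, 10 were higher (list 15.6%) and 1 lower (list 13.4%), so much of the count is the general increase. Of the 41 with at least 20 PPARγ tags, 21 were higher, against 30.3% of such peaks, and 0 lower, against 4.03%.

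**Figure D2:**
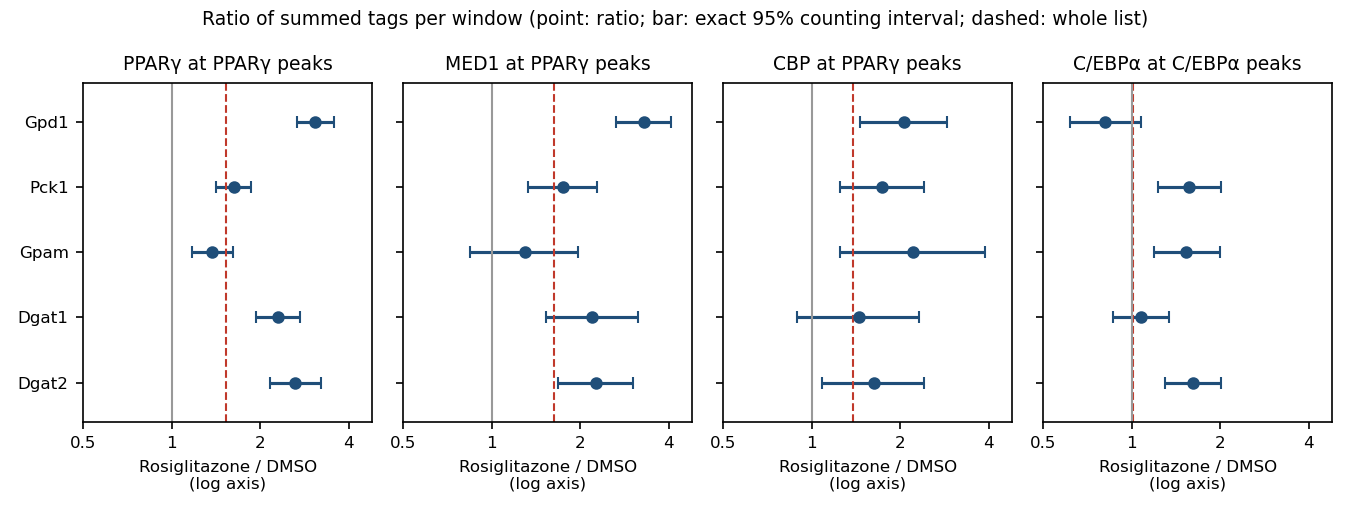
Ratio of rosiglitazone to DMSO tags summed over each window (log axis), with exact 95% counting intervals as bars; the dashed line is the ratio over the whole list and the solid line is 1. Gpd1 is highest for PPARγ (3.08) and MED1 (3.28) and lowest for C/EBPα (0.813). It is within counting error of Dgat2 for PPARγ and of Dgat1 for MED1 and C/EBPα.

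The Gpd1 window was dominated by 1 peak, on chromosome 15 from 99546404 to 99546590, rank 9 of the PPARγ list by score. It held 164 normalised tags of PPARγ in DMSO and 535 in rosiglitazone, 88.3 and 57.3 of C/EBPα, 245 then 1002 of MED1, and 57.5 and 121 of CBP. PPARγ, MED1 and CBP were higher with rosiglitazone, by 3.27 (2.78 to 3.87), 4.10 (3.04 to 5.56) and 2.11 times (1.12 to 3.93), while the C/EBPα ratio of 0.649 (0.414 to 1.02) was lower within counting error. This peak carried 76.5% of the window's PPARγ tags, and without it the PPARγ ratio was 2.55 (1.92 to 3.41).

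A group of 3 weaker PPARγ peaks lay 7.52 to 9.27 kb from it towards higher coordinates. The first, from 99553928 to 99554114, went from 7.03 to 62.4 for PPARγ, a ratio of 8.86 (4.27 to 21.3), the highest of the 45 by log2 ratio. Its C/EBPα was 0.00 and 2.55, MED1 69.9 and 145, and CBP 35.4 and 91.0. Its PPARγ ratio exceeded that of the dominant peak by 2.71 times (1.27 to 6.61), so the weaker site gained more in proportion.

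The next 2 sites of this group gained less. The peak from 99554360 to 99554546 held 11.4 and 31.6 of PPARγ (2.76, 1.44 to 5.65), 83.9 then 199 of MED1, and 42.0 and 72.8 of CBP. The peak from 99555678 to 99555864 held 15.8 and 34.1 of PPARγ (2.15, 1.21 to 3.98), 41.9 then 76.5 of MED1, and 26.5 and 72.8 of CBP. C/EBPα was low at both, with 6.62 in DMSO and 12.7 and 11.5 in rosiglitazone.

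The remaining Gpd1 peaks lay on the other side of the dominant one and had no PPARγ difference beyond counting error. The peak from 99532420 to 99532606 held 15.8 and 13.3 of PPARγ (0.840, 0.401 to 1.75). There MED1 went from 62.9 to 222, a ratio of 3.53 (1.89 to 6.75), while C/EBPα went from 19.9 to 2.55 on 9 and 2 tags. MED1 was thus higher at a site where PPARγ was not measurably higher. The sixth peak, from 99526377 to 99526563, held 10.6 and 13.3 of PPARγ.

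C/EBPα summed over its 7 peaks in the Gpd1 window was not higher with rosiglitazone. Of the 7, 4 had the higher value with it, and the share of the whole C/EBPα list that did was not computed. The sum went from 205 to 167, a ratio of 0.813 (0.618 to 1.07). The highest peak, from 99546415 to 99546645 at the dominant PPARγ site, held 99.4 and 70.0, while the peak from 99549121 to 99549351, with no PPARγ peak, 53.0 and 38.2. Both ratios, 0.705 (0.467 to 1.07) and 0.721 (0.408 to 1.29), were below 1 within counting error. The peak from 99555764 to 99555994 held 8.83 and 17.8. A far higher C/EBPα peak, from 99494975 to 99495205 with 300.3 in DMSO and 190 in rosiglitazone, lay 14910 bp outside the window and was not counted. With the window widened by 50000 bp on each side, which takes that peak in, the ratio was 0.671 (0.565 to 0.797), and over the 2 peaks of the window with at least 20 tags it was 0.711 (0.511 to 0.991), both below 1 beyond counting error. Of the weak peaks, the one from 99532372 to 99532602 held 24.3 and 3.82 on 11 and 3 tags (0.157, 0.0282 to 0.596), and the one from 99526908 to 99527138 held 2.21 and 15.3 on 1 and 12 tags (6.92, 1.02 to 296).

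At Pck1 the highest PPARγ peak was not the one that gained most. The highest, on chromosome 2 from 172958602 to 172958788 and rank 103 of the list, went from 135 to 179, a ratio of 1.32 (1.07 to 1.63). The peak from 172977457 to 172977643, 18.9 kb away, went from 58.9 to 165, a ratio of 2.79 (2.11 to 3.74). The second ratio exceeded the first by 2.11 times (1.48 to 3.04). Without the highest peak the window's ratio was 1.89 (1.57 to 2.27) in place of 1.63.

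Both Pck1 sites carried coactivators. The highest peak held 75.1 and 63.7 of C/EBPα, 83.9 then 230 of MED1 (2.74, 1.55 to 4.89), and 46.4 and 109 of CBP (2.35, 1.18 to 4.64). The peak 18.9 kb away held 35.3 and 48.4 of C/EBPα, 245 then 482 of MED1 (1.97, 1.38 to 2.81), and 79.6 and 164 of CBP (2.06, 1.20 to 3.49). MED1 and CBP were therefore higher beyond counting error at both; their ratios were not tested against each other.

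The highest Pck1 site differed between its flanks. Its C/EBPα peak, from 172958406 to 172958636, has its centre 174 bp from the PPARγ peak, and the windows of the peaks have 35 bp in common. In this C/EBPα window PPARγ went from 23.7 to 107, a ratio of 4.52 (2.97 to 7.12), against 1.32 in the PPARγ window. C/EBPα went from 55.2 to 113 there (2.05, 1.31 to 3.34), against 75.1 and 63.7 (0.848, 0.538 to 1.35) in the PPARγ window. MED1 in the C/EBPα window went from 143 to 429 (2.99, 1.96 to 4.59). The PPARγ and C/EBPα ratios were thus higher on the flank under the C/EBPα peak. For C/EBPα the intervals of both windows overlap, and the differences between the windows were not tested. PPARγ was higher than in DMSO on both flanks.

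A second C/EBPα site of the Pck1 window showed the same pair of gains. The peak from 172978115 to 172978345 lay 680 bp, centre to centre, from the PPARγ peak that starts at 172977457. It held 6.62 and 39.5 of C/EBPα (5.96, 1.86 to 30.5) and 4.40 and 32.4 of PPARγ (7.37, 2.90 to 24.0), although no listed PPARγ peak overlapped it. MED1 was 52.4 and 107. Another C/EBPα peak, from 172949586 to 172949816, held 8.83 and 26.8 (3.03, 1.02 to 12.1). The C/EBPα peaks from 172977451 to 172977681, with 39.8 and 59.9, and from 172936168 to 172936398, with 28.7 and 31.8, did not differ beyond counting error.

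Not every Pck1 site gained PPARγ beyond counting error. The peak from 172936159 to 172936345 held 40.5 and 48.2 of PPARγ (1.19, 0.796 to 1.80), 22.1 and 22.9 of C/EBPα and 31.4 then 45.9 of MED1, and CBP there was 53.0 and 18.2 on 24 and 3 tags (0.343, 0.0661 to 1.13). In the C/EBPα peak that overlaps it, from 172936168 to 172936398, MED1 was higher, from 45.4 to 122 on 13 and 16 tags (2.695, 1.22 to 6.09). CBP in that peak was 68.5 and 24.3 on 31 and 4 tags (0.354, 0.0908 to 1.00). At the peak from 172949903 to 172950089 MED1 had 19 tags in DMSO but 0 after rosiglitazone, which gives a ratio of at most 0.469 by the exact interval. CBP at that peak was 35.4 and 78.8 on 16 and 13 tags (2.23, 0.986 to 4.94), within counting error, and PPARγ was 23.7 and 19.1. The C/EBPα peak from 172975359 to 172975589 held 30.9 and 10.2 (0.330, 0.120 to 0.842). Among the other 4 PPARγ peaks, the one from 173012221 to 173012407 held 7.91 and 23.3 (2.94, 1.35 to 7.09), with 1 tag of MED1 and 0 of CBP over both treatments.

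Summed over its 8 peaks, C/EBPα in the Pck1 window went from 203 to 317, a ratio of 1.56 (1.22 to 2.01), and the same tags relative to the rest of the C/EBPα list gave 1.54 (1.21 to 1.98). PPARγ counted in these C/EBPα peaks had a ratio of 2.50 (2.12 to 2.97), against 1.63 in the PPARγ peaks. The Pck1 value therefore depends on which windows are counted.

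Gpam had strong PPARγ sites that hardly changed. The peak on chromosome 19 from 55170162 to 55170348, with no C/EBPα peak, held 49.2 and 49.9 of PPARγ (1.01, 0.692 to 1.48), 4.42 and 10.2 of C/EBPα, 24.5 then 7.65 of MED1, and 4.42 and 12.1 of CBP. The peak from 55242340 to 55242526 held 40.5 and 31.6 of PPARγ (0.781, 0.495 to 1.23), 4.42 and 6.37 of C/EBPα, 14.0 then 7.65 of MED1, and 4.42 and 18.2 of CBP. These are PPARγ peaks of good height with few coactivator tags.

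The highest Gpam peak, from 55213976 to 55214162 and rank 363, gained both factors. It held 64.2 and 116 of PPARγ (1.80, 1.35 to 2.42), 35.3 and 91.7 of C/EBPα (2.60, 1.50 to 4.78), 129 then 184 of MED1 (1.42, 0.813 to 2.44) and 35.4 and 72.8 of CBP (2.06, 0.889 to 4.64). Its PPARγ ratio exceeded those of the other 2 named peaks, by 1.77 times (1.09 to 2.89) and 2.30 times (1.33 to 3.99). MED1 and CBP differences there were within counting error. Without this peak the window's PPARγ ratio was 1.21 (0.997 to 1.47), no longer beyond counting error.

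Of the weaker Gpam peaks, the one from 55212470 to 55212656 held 8.79 and 32.4 of PPARγ (3.69, 1.81 to 8.28), and the one from 55187383 to 55187569 held 3.52 and 14.1 (4.02, 1.31 to 16.4) with 0 tags of C/EBPα and MED1. Summed over 9 C/EBPα peaks, C/EBPα at Gpam went from 188 to 288, a ratio of 1.53 (1.19 to 1.99). Without the highest, from 55213876 to 55214106 with 57.4 and 125 (2.17, 1.40 to 3.49), it was 1.25 (0.912 to 1.73), within counting error. The other 2 named C/EBPα peaks, from 55206278 to 55206508 with 22.1 and 29.3 and from 55241886 to 55242116 with 28.7 and 36.9, did not differ beyond it. At the latter MED1 had 0 tags in DMSO but 11 after rosiglitazone, which gives a ratio of at least 5.50 by the exact interval. PPARγ was 34.3 and 43.2 there. The weak C/EBPα peak from 55240630 to 55240860, which overlaps no PPARγ peak, held 5.28 and 15.0 of PPARγ (2.84, 1.08 to 8.73).

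Dgat1 had a compact group of 4 PPARγ peaks whose outer centres lay 3.88 kb apart, each higher with rosiglitazone beyond counting error. The highest, on chromosome 15 from 76338700 to 76338886 and rank 596, held 53.6 and 91.5 of PPARγ (1.70, 1.24 to 2.37), 53.0 and 72.6 of C/EBPα, 62.9 then 122 of MED1, and 28.7 and 54.6 of CBP. The peak from 76339224 to 76339410 held 27.3 and 52.4 of PPARγ (1.92, 1.23 to 3.06), 4.42 and 6.37 of C/EBPα, 31.4 then 107 of MED1 (3.41, 1.37 to 8.92), and 15.5 and 36.4 of CBP. C/EBPα was thus high at the first and nearly missing at the second, 524 bp away.

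The largest PPARγ gain of the Dgat1 group was at a site already rich in C/EBPα. The peak from 76342576 to 76342762 held 11.4 and 60.7 of PPARγ (5.31, 2.92 to 10.4), 37.5 and 56.0 of C/EBPα (1.49, 0.836 to 2.79), 45.4 then 122 of MED1 (2.69, 1.22 to 6.09), and 24.3 and 24.3 of CBP. Its PPARγ ratio exceeded that of the highest peak by 3.10 times (1.55 to 6.61). PPARγ and MED1 were higher there, while C/EBPα did not differ beyond counting error and CBP was level on 11 and 4 tags.

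All 9 Dgat1 peaks had the higher PPARγ value with rosiglitazone, against 70.5% of the whole list, and the intervals of 8 lay above 1. The share of the whole list with such an interval was not computed, and intervals of single peaks were not adjusted for their number. The peak from 76369835 to 76370021 held 15.8 and 55.7 (3.52, 2.07 to 6.29), the one from 76291506 to 76291692 held 14.95 and 35.8 (2.39, 1.34 to 4.47), and the one from 76330483 to 76330669 held 5.28 and 16.6 (3.15, 1.22 to 9.59). These 3 had few coactivator tags, with at most 5 of MED1 or CBP in any library. The peak from 76368591 to 76368777 held 3.52 and 15.8 of PPARγ (4.49, 1.49 to 18.2).

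C/EBPα summed over its 11 peaks at Dgat1 went from 289 to 311, a ratio of 1.07 (0.865 to 1.34), within counting error. The named peaks held 70.7 and 79.0 (from 76338652 to 76338882), 53.0 and 63.7 (from 76342471 to 76342701) and 37.5 and 40.8 (from 76337755 to 76337985). None of these differed beyond counting error. At the last, which overlaps no PPARγ peak, MED1 went from 73.4 to 15.3 (0.209, 0.0237 to 0.853) while CBP was 37.6 and 60.6. The C/EBPα peak from 76340155 to 76340385 held 35.3 and 35.7 of C/EBPα, while PPARγ there went from 9.67 to 39.9 (4.13, 2.11 to 8.81) and CBP was 37.6 and 18.2 on 17 and 3 tags (0.484, 0.0909 to 1.67). A weaker C/EBPα peak, from 76311522 to 76311752, held 6.62 and 22.9 (3.46, 1.01 to 18.3). The one from 76308628 to 76308858 held 22.1 and 1.27 on 10 and 1 tags (0.0577, 0.00133 to 0.405), the lowest log2 ratio of the 47 C/EBPα peaks.

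Dgat2 had many weak PPARγ peaks. All 13 had the higher value with rosiglitazone, against 70.5% of the whole list, and the intervals of 7 lay above 1. The share of the whole list with such an interval was not computed. Of the 13, 2 were nearly level, from 106341310 to 106341496 with 8.79 and 9.15 (1.04, 0.401 to 2.73) and from 106342066 to 106342252 with 9.67 and 9.98 (1.03, 0.417 to 2.58). The highest, on chromosome 7 from 106363987 to 106364173 and rank 745, held 33.4 and 96.4 of PPARγ (2.89, 1.99 to 4.28), 6.62 and 14.0 of C/EBPα, 31.4 then 153 of MED1 (4.87, 2.12 to 12.1), and 11.1 and 24.3 of CBP. Without it the window's PPARγ ratio was 2.54 (2.02 to 3.22), close to the 2.63 with it, so the gain was spread over the window.

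The other 2 peaks with most PPARγ tags at Dgat2 differed in C/EBPα. The peak from 106331476 to 106331662 held 11.4 and 30.8 of PPARγ (2.69, 1.40 to 5.52), 11.0 and 11.5 of C/EBPα, 55.9 then 161 of MED1 (2.87, 1.43 to 5.89), and 11.1 and 6.06 of CBP. The peak from 106377467 to 106377653 held 6.16 and 33.2 of PPARγ (5.40, 2.39 to 14.3), 6.62 and 43.3 of C/EBPα (6.54, 2.06 to 33.3), 14.0 then 68.9 of MED1, and 17.7 and 42.5 of CBP. PPARγ was higher beyond counting error at both, and C/EBPα was so at the second, which lay near the end of the window.

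Of the weaker Dgat2 peaks, 2 had a PPARγ ratio above 5 on 5 tags in DMSO. They ran from 106352823 to 106353009, with 4.40 and 25.8 (5.86, 2.26 to 19.3), and from 106376818 to 106377004, with 4.40 and 24.9 (5.67, 2.18 to 18.7). The peak from 106310214 to 106310400 held 6.16 and 19.1 (3.11, 1.29 to 8.57). In contrast, the peak from 106303967 to 106304153, with 5.28 and 12.5, passed 2-fold but not counting error (2.36, 0.867 to 7.44).

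The largest MED1 gain among peaks with at least 20 MED1 tags was at a weak PPARγ site of Dgat2. At the peak from 106299906 to 106300092 MED1 went from 17.5 to 176, a ratio of 10.1 (3.75 to 33.9), while PPARγ was 6.16 and 13.3 (2.16, 0.841 to 6.21), C/EBPα 11.0 and 7.64, and CBP 13.3 and 24.3. The peak from 106337239 to 106337425 went the other way. MED1 there went from 94.4 to 30.6 (0.324, 0.0825 to 0.931) while PPARγ was 8.79 and 20.8 (2.36, 1.10 to 5.51), C/EBPα 30.9 and 66.2 (2.14, 1.17 to 4.19), and CBP 59.7 and 103 (1.73, 0.883 to 3.29). More PPARγ and C/EBPα and less MED1 were thus counted at this site.

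C/EBPα was higher over the Dgat2 window, from 254 to 409 over 12 peaks, a ratio of 1.61 (1.30 to 2.01). The highest peak, from 106337180 to 106337410, held 33.1 and 91.7 (2.77, 1.57 to 5.20), and the peak from 106316573 to 106316803, with no PPARγ peak, 19.9 and 56.0 (2.82, 1.36 to 6.57). The peaks from 106342018 to 106342248 and from 106377394 to 106377624 held 17.7 and 49.7 (2.81, 1.30 to 6.97) and 11.0 and 49.7 (4.50, 1.77 to 14.6). The third by tags, from 106294696 to 106294926, held 35.3 and 43.3, a difference within counting error. Of the 12 peaks, 4 were thus higher beyond counting error, 0 were lower beyond it, and 5 had the lower value with rosiglitazone. The shares of the whole C/EBPα list beyond counting error, or with the lower value, were not computed.

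**Figure D3:**
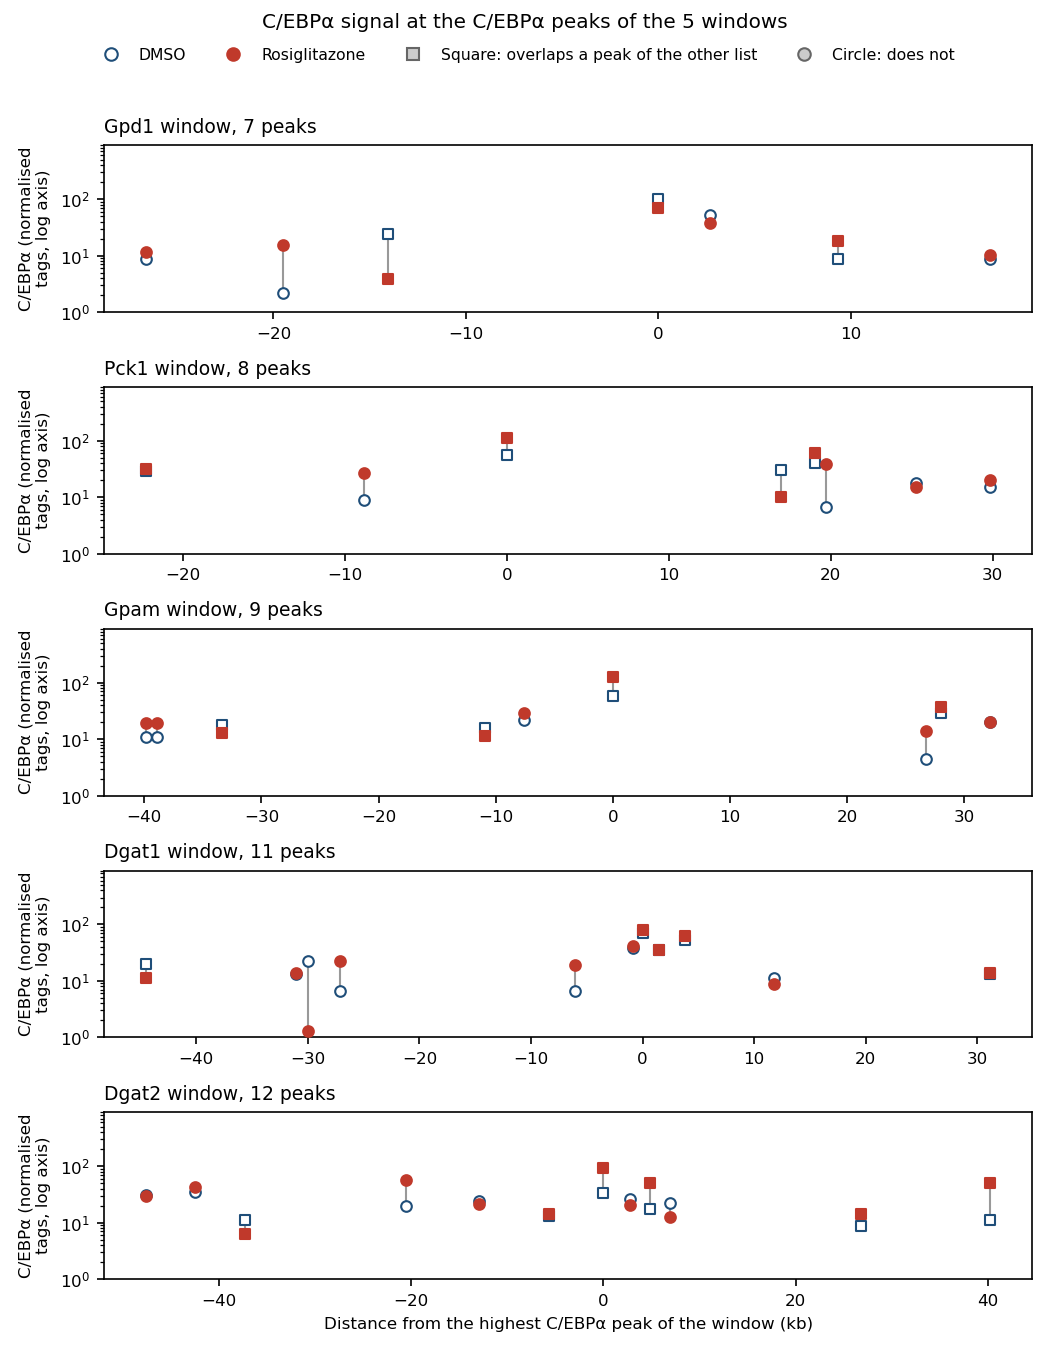
C/EBPα normalised tags (log axis) at each C/EBPα peak in DMSO (open) and rosiglitazone (filled), by distance in kb from the highest C/EBPα peak of its window; squares overlap a PPARγ peak. The highest peaks at Pck1, Gpam and Dgat2 are higher with rosiglitazone (113, 125 and 91.7), and the highest at Gpd1 is lower (70.0 against 99.4).

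Across the 47 C/EBPα peaks of the windows, 12 were at least 2-fold higher, against 15.9% of the C/EBPα list, and 3 at least 2-fold lower, against 9.25%. Of the 30 with at least 20 tags, 9 were higher, against 13.8% of such peaks, and 1 lower, against 7.38%. Their summed ratio was 1.31 (1.18 to 1.45) where that of the list was 1.01 (1.01 to 1.02), and their median log2 ratio 0.19 where that of the list was 0.07. Relative to the rest of the list, Dgat2 (1.59, 1.28 to 1.99), Pck1 (1.54, 1.21 to 1.98) and Gpam (1.51, 1.18 to 1.97) were higher, while Dgat1 (1.06, 0.854 to 1.32) and Gpd1 (0.802, 0.610 to 1.06) did not differ beyond counting error. Of the 10 pairs of windows 6 had an interval above 1, and Dgat2 exceeded Gpd1 by 1.98 times (1.39 to 2.82). The C/EBPα library of rosiglitazone was 1.73 times deeper than that of DMSO, and its part in these ratios was tested only by thinning it, which left every window's ratio inside its interval. The order of the windows for C/EBPα was not that for PPARγ, with Gpd1 highest for PPARγ and lowest for C/EBPα. Neither rank was beyond counting error against every window. For PPARγ Gpd1 over Dgat2 was 1.17 (0.913 to 1.49), and for C/EBPα Dgat1 over Gpd1 was 1.32 (0.927 to 1.88).

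MED1 at the PPARγ peaks was higher at 4 of the 5 windows. The ratio was 3.28 at Gpd1 (2.65 to 4.08), 2.26 at Dgat2 (1.69 to 3.03), 2.19 at Dgat1 (1.53 to 3.14) and 1.74 at Pck1 (1.33 to 2.28), and at Gpam 1.30 (0.847 to 1.97) was within counting error. The list had 1.63 (1.61 to 1.64), and Gpd1 with 2.02 (1.63 to 2.51) and Dgat2 with 1.39 (1.04 to 1.86) exceeded its other peaks. At Dgat2 this depended on the setting. Its ratio was 1.99 (1.44 to 2.73) without the highest peak and 2.33 (1.61 to 3.43) with the deeper library thinned. Both of these intervals include the 1.63 of the list. Of the 10 pairs of windows 4 had an interval above 1, and all 4 had Gpd1 or Dgat2 as the higher. Of the neighbours in this order, Dgat2 and Dgat1 (1.03, 0.645 to 1.65), Dgat1 and Pck1 (1.26, 0.798 to 1.98) and Pck1 and Gpam (1.34, 0.809 to 2.23) did not differ beyond counting error. With the deeper library thinned, Dgat1 (2.50) stood above Dgat2 (2.33) and Gpam (1.65) above Pck1 (1.60), and without the highest peaks Dgat1 (2.28) stood above Dgat2 (1.99), while Gpd1 was highest in both cases (3.54 and 2.52).

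Counts of single peaks for MED1 are limited by depth. At least 2-fold higher were 20 of the 45, against 29.8% of the list, and lower 8, against 22.5%. Of the 16 with at least 20 MED1 tags, 10 were higher, against 45.1% of such peaks of the list, and 1 lower, against 8.14%. Where the PPARγ peak overlapped a C/EBPα peak, at 22 sites, the MED1 ratio was 2.59 (2.25 to 2.99), and at the other 23 it was 1.50 (1.14 to 1.97). Over the whole list these classes had MED1 ratios of 1.61 with overlap and 1.64 without, and CBP at the windows' peaks stood the other way, at 1.64 (1.33 to 2.02) with overlap and 2.19 (1.59 to 3.03) without. The difference between the classes was not tested. The PPARγ ratios of these classes were 2.16 (1.99 to 2.34) and 1.98 (1.73 to 2.27). The dominant Gpd1 peak is among the 22.

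**Figure D4:**
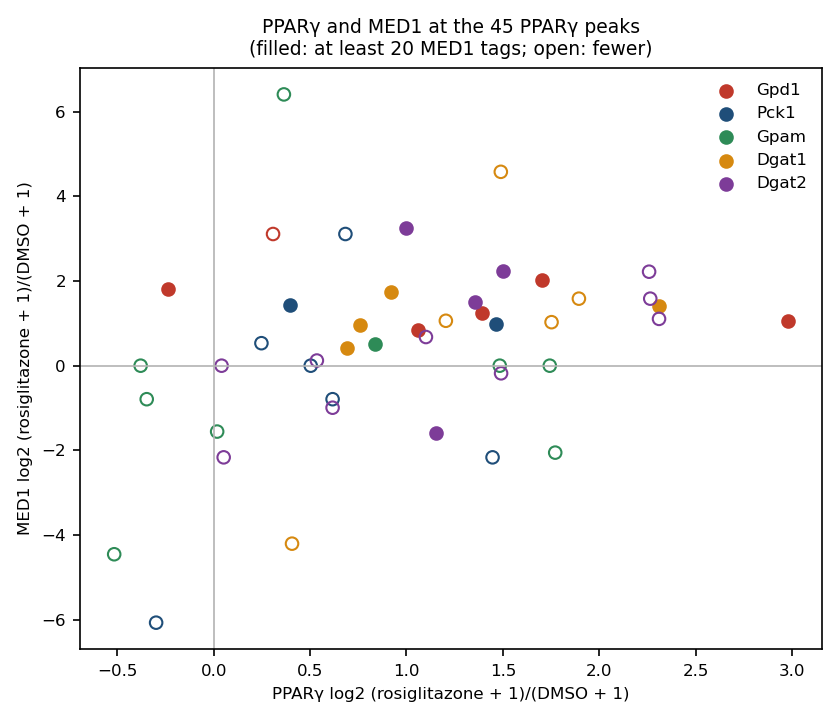
Log2 ratio (rosiglitazone plus 1 over DMSO plus 1) of MED1 against that of PPARγ at the 45 PPARγ peaks, coloured by window; filled points have at least 20 MED1 tags and open points fewer. PPARγ and MED1 were both at least 2-fold higher at 13 peaks (28.9%, against 11.8% of the whole list), and the widest MED1 values are open points with few tags.

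From peak to peak MED1 and PPARγ were at most loosely related. Over the 45 PPARγ peaks their log2 ratios had a Spearman rho of 0.35 and a Pearson r of 0.34, and over the 16 peaks where each factor had at least 20 tags, a rho of 0.15 and an r of -0.00. Peaks share their libraries and, within a window, their surroundings, so these are descriptions without a test.

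CBP at the PPARγ peaks was higher at 4 of the 5 windows, with no order among them. The ratio was 2.21 at Gpam (1.25 to 3.87), 2.06 at Gpd1 (1.46 to 2.89), 1.74 at Pck1 (1.25 to 2.40) and 1.62 at Dgat2 (1.08 to 2.41), and 1.45 at Dgat1 (0.889 to 2.31) was within counting error. The list had 1.38 (1.37 to 1.39). Gpd1, at 1.49 (1.06 to 2.09), exceeded the other peaks of the list, while the intervals of the other 4 windows included 1. This depended on the setting. The Gpd1 ratio was 1.97 (1.27 to 3.11) with the deeper library thinned and 1.47 (1.09 to 1.97) with the window widened by 50000 bp on each side. Both of these intervals include the 1.38 of the list. Of the 10 pairs of windows 0 differed beyond counting error, with 56 to 165 CBP tags a window. At least 2-fold higher were 19 of the 45, against 23.6% of the list, and 8 lower, against 25.1%. Of the 11 with at least 20 CBP tags, 7 were higher, against 22.7% of such peaks, and 1 lower, against 5.7%.

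MED1 and CBP were 2.19 and 2.74 times deeper in DMSO than in rosiglitazone, so their rosiglitazone values rest on few tags. With the deeper library thinned to the shallower, the ratios of all 5 windows for both factors stayed inside the intervals given above. CBP at Gpam was then 1.56 (0.802 to 3.13) and at Dgat2 1.50 (0.908 to 2.51), however, so neither was any longer beyond counting error.

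The highest peaks of the windows were compared with all PPARγ peaks over the 8 columns, by Euclidean distance of log2 (value plus 1). Most like the dominant Gpd1 peak was a peak on chromosome 7 from 35923645 to 35923831, at a distance of 1.47, with 107 and 405 of PPARγ and 472 then 1171 of MED1. For the highest Gpam peak, the most like was on chromosome 9 from 108930068 to 108930254, at 1.29, and the second most like was the highest Dgat1 peak, at 1.50. The most like for Pck1 was a peak on chromosome 5 from 34342281 to 34342467 at 1.19. For Dgat1 the most like was one on chromosome 5 from 66473586 to 66473772 at 1.01, and for Dgat2 one on chromosome 4 from 108023525 to 108023711 at 0.99. Among the 5, Gpam and Dgat1 were closest and Gpd1 and Dgat2 farthest apart, at 7.33.

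Near the windows' edges, the nearest PPARγ peak outside lay 2748 bp beyond the Gpd1 window with 7.91 and 10.8 of PPARγ, and the nearest inside an edge lay 1599 bp inside the Dgat1 window with 14.95 and 35.8.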

How the data were processed

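The authors deposited a PPARγ and a C/EBPα peak list in mm9 with a normalised tag signal for 4 factors and 2 treatments. The submitters' processing notes name FastQC, Bowtie, HOMER and edgeR, with version and parameters not given in the sources used here. The peak score and the focus ratio, a fraction per peak, are the authors' deposited values; the score was used only to rank peaks. All signal values above 0 were whole multiples of 1 tag (100% within 0.02 tags), so tags were recovered. The value of 1 tag, lower in a deeper library, was 0.831 to 7.65 normalised tags; the absolute depth is not known. A count model such as edgeR needs replicates and was not run. The BRL column, a code of rosiglitazone, was taken as the MED1 rosiglitazone sample.

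Ratios of summed tags have exact 95% intervals (SciPy 1.17.1), and a window was compared with the rest of its list, or with another window, by the conditional odds ratio of the tags; this compares libraries, not conditions. Scripts were checked on simulated tags. Named were the 3 peaks with most own tags per window and list, and peaks with at least 20 tags of their own factor that differed 2-fold in it. Peaks that passed this rule for another factor are given only in part, and those left out are mainly of the C/EBPα list. Some peaks outside this rule are also given, among them peaks with an extreme or a level value. The intervals of peaks picked for their value are not those of peaks fixed beforehand. A site in both lists was counted in each, so its tags enter both. The members and lists were chosen with earlier results of these data known.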

Additional observations from a re-analysis of the deposited data

How the results depend on the processing

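Of 128 alternative values for 30 results, 109 kept their direction and stayed within the interval or 1.5 times the count of the value reported, 18 moved beyond that and 1 changed direction. Dividing by the ratio over the whole list lowers each PPARγ ratio by construction. Gpam was then 0.901 (0.768 to 1.06), below 1 within counting error, and this is the change of direction. The other windows were 2.02 (Gpd1), 1.07 (Pck1), 1.51 (Dgat1) and 1.73 (Dgat2). Without its highest peak PPARγ was 2.55 at Gpd1 and 1.89 at Pck1, and MED1 at Gpd1 was 2.52. Counted in the C/EBPα peaks, PPARγ at Pck1 was 2.50. Centred on the median of the list, which lowers each PPARγ log2 ratio by construction, 10 PPARγ peaks passed 2-fold upwards and 1 downwards. With at least 20 tags of the factor, 10 peaks were higher and 1 lower for MED1, 7 and 1 for CBP, and 1 was lower for C/EBPα, by construction from fewer peaks. With a pseudocount of 5, 4 were lower for CBP. With scores at or above the list median, 12 peaks of each list were shared, again among fewer peaks. Where no construction is named, the cause was not tested. No paired analysis was possible because the columns carry no replicate numbers, and leaving out a replicate was not possible with 1 column per treatment. Depth limits MED1 and CBP most, with a median of 11 and 6 tags per PPARγ peak of the windows over both treatments.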
